A study of Mus musculus with 4 samples.

Results

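Methylated Pontin peaks that lay inside the introns of genes, away from any promoter, numbered 430 of the 4311 peaks in the library. A peak was taken when its centre was more than 2500 bp from every transcription start site (TSS) of the GENCODE vM21 transcripts, lay within at least 1 annotated transcript and fell in no annotated exon. The other peaks were 3382 within 2500 bp of a TSS (proximal), 465 distal and between genes (intergenic) and 34 distal with the centre in an exon. The 430 peaks are called distal intronic here.

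The study made ChIP-seq libraries from mouse embryonic fibroblasts (MEFs), connective tissue cells grown from embryos, kept in normal media or under glucose starvation. The study describes the cells as wild type, and the labels give no genotype and no length of starvation. The antibody, mePontin, recognises Pontin methylated at the arginines R333 and R339, and input chromatin was sequenced for each medium, which gives 4 libraries with 1 per group. The values analysed here are the peaks of the ChIP library under glucose starvation, so no comparison of starved with fed cells was made. With no replicate there is no spread between cultures and no test between classes of peaks, and every interval given below covers counting error only.

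Pontin (Ruvbl1) is an AAA+ ATPase that works, usually with Reptin, in chromatin remodelling and histone acetyltransferase complexes such as INO80, SRCAP and TIP60. CARM1 is a methyltransferase that methylates arginines of coregulators, and FOXO3a is a transcription factor that turns on stress and autophagy genes when nutrients are scarce. Introns of long genes hold many enhancers, which can act on the gene around them or on another gene, so a peak in an intron does not name its target.

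The sequences of the strongest distal intronic peaks show what lay under the highest signals. Each is the central 200 bp of the peak on the plus strand of GRCm38/mm10, in lower case, with matches to any of 10 short motifs in capitals. The motif sequences are given with the motif counts.
Apool (chrX:112370834-112371033): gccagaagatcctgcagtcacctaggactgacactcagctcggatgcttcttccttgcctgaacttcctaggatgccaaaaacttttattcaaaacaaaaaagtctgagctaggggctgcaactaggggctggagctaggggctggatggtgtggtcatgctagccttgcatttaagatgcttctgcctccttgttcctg
Sp110 (chr1:85593035-85593234): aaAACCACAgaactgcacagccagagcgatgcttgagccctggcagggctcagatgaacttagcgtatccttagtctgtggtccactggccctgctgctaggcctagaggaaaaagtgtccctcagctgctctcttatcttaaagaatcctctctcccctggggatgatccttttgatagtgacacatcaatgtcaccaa
Rnd1 (chr15:98672959-98673158): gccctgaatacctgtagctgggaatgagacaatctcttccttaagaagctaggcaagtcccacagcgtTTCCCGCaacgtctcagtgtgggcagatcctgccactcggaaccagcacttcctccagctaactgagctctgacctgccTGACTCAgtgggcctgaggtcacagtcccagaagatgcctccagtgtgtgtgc
2310022B05Rik (chr8:124643571-124643770): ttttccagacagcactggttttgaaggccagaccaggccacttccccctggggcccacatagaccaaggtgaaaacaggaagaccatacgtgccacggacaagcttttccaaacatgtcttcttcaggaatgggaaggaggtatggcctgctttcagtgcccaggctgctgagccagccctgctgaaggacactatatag

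In these sequences the window in Apool held no match, that in Sp110 held the RUNX motif on the minus strand, that in Rnd1 held the E2F1 motif on the minus strand followed by an AP-1 motif, and that in 2310022B05Rik held none. Of the 5 members with a FOXO3a motif and the highest tag counts, 4 are shown next and the third, in Rbbp8, is not shown here. They were chosen because the study asked whether methylated Pontin and FOXO3a act together. The capitals mark that motif on either strand.
Gm2895 (chr15:66998990-66999189): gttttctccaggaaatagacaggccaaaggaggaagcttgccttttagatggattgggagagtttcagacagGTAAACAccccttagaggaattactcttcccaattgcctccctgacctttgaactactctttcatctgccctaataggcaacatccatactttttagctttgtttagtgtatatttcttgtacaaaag
Setd5 (chr6:113099859-113100058): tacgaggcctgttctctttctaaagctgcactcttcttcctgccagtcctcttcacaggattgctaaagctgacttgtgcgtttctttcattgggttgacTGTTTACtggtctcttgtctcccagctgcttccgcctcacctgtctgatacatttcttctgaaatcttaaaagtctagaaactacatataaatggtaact
4930449C09Rik (chr15:63726583-63726782): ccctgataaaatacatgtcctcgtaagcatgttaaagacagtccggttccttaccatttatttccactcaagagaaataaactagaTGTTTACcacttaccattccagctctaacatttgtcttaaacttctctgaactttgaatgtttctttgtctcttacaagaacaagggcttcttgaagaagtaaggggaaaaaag
Thra (chr11:98750833-98751032): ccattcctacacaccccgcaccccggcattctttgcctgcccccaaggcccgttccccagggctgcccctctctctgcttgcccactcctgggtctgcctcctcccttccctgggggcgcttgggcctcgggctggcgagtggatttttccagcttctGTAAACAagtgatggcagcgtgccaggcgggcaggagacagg

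The peak in Bnip3, which encodes a mitophagy receptor, is printed because this was the only host gene among the 55 autophagy and lysosome genes taken from the study. That is 1.82% of them, against 1.56% of all protein-coding genes. Its capitals mark an AP-1 motif.
Bnip3 (chr7:138906483-138906682): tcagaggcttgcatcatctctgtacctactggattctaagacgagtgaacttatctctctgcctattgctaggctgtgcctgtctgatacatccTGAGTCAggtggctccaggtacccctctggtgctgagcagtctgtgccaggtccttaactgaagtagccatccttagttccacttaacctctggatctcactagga

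The signal of a peak is its normalized tag count, which the authors scaled to 10000000 tags. Distal intronic peaks were weak for this library, with a median of 12.5 (interquartile range 10.8 to 15.4), or 26.0 tags. Intergenic peaks had the same median of 12.5 (10.6 to 15.2) and proximal peaks a median of 14.7 (12.5 to 17.8). A tag count of at least 20 was reached by 24 of the 430 distal intronic peaks (5.58%) against 11.9% of all peaks. A fold over input of at least 8 was reached by 201 of them (46.7%, 95% Wilson interval 42.1 to 51.5) against 55.9% of all peaks and 52.9% of intergenic peaks. Scores were low too, as 141 members (32.8%) had a score of at most 20, where the list begins at 18, against 150 of 465 intergenic peaks (32.3%) and 368 of 3382 proximal peaks (10.9%). For most members the distance from the median of all peaks, 14.2, was within counting error, as the 95% Poisson interval of the tag count excluded it in 29 of 430 (6.74%).

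**Figure D1:**
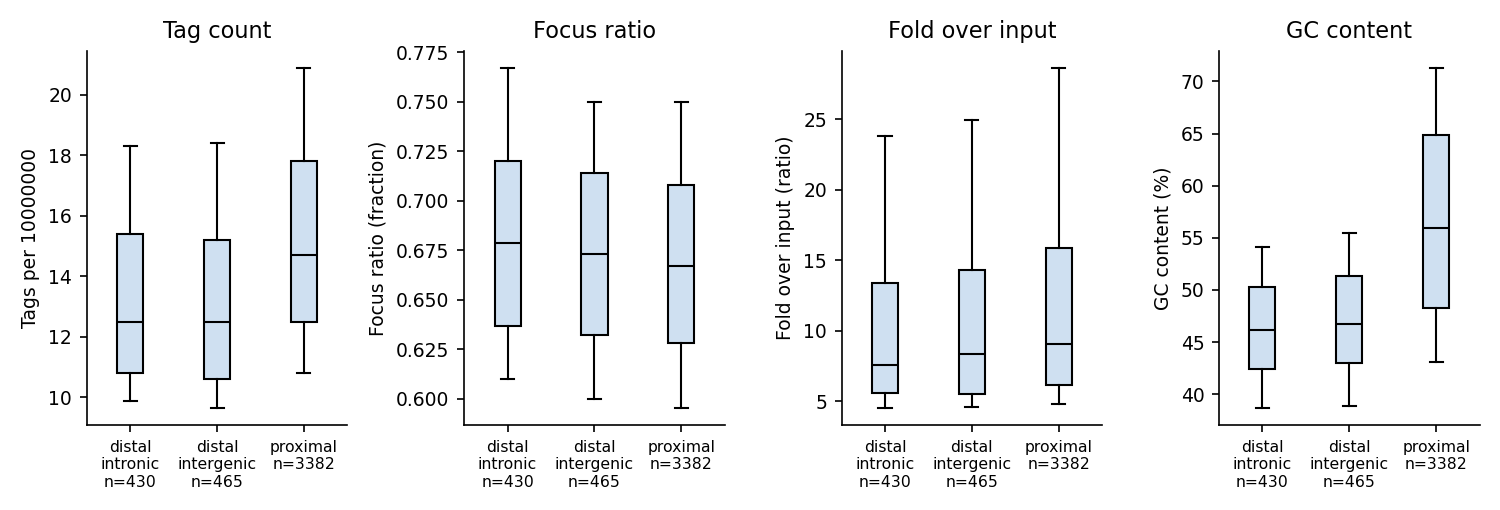
Tag count (tags per 10000000), focus ratio (fraction), fold over input (ratio) and GC content (%) of distal intronic, distal intergenic and proximal peaks. Lines are medians, boxes the quartiles and whiskers the 10th and 90th percentiles over the peaks of 1 library. The distal intronic and intergenic medians of the tag count are both 12.5 and the proximal median is 14.7.

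The 10 highest members had tag counts of 26.0 to 85.2. The highest was in the last intron of Apool, which encodes a protein of the mitochondrial cristae, with a tag count of 85.2 (95% Poisson interval 73.1 to 98.8). It was 20.1-fold over input and 62.6-fold over the surrounding 10 kb, while the median member was 4.66-fold over its surroundings. In the Apool peak 79.1% of the 32-base stretches occurred elsewhere in the genome as well, and the part of these repeats in its signal was not tested. The next peak, in intron 3 of the nuclear body gene Sp110, had a tag count of 35.2 (27.6 to 44.2). Rnd1, an atypical small GTPase, followed with 33.5 (26.3 to 42.6) in intron 3 of 4, and 2310022B05Rik with 33.2 (25.9 to 42.1) in intron 2 of 3. The intervals of these last 3 peaks overlapped, so their order is not resolved at this depth.

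The other hosts of strong peaks had varied roles. Vac14, the scaffold of the PIKfyve lipid kinase complex on endosomes and lysosomes, held a peak of 31.8 (24.6 to 40.4) in its last intron, the 18th, and the nearest TSS there was that of Mtss1l. Triobp, an actin-bundling protein, held one of 28.2 (21.6 to 36.7) and Gna12, the alpha subunit of a heterotrimeric G protein, one of 27.7 (21.2 to 36.1). Retreg1, a receptor for autophagy of the endoplasmic reticulum, held a peak of 26.0 (19.5 to 33.9) in intron 3 of 8, at 5.78 kb from a TSS. The noncoding genes Gm16675 and Gm2895 held peaks of 30.3 (23.3 to 38.8) and 27.9 (21.2 to 36.1), and the nearest TSS to the latter was that of Ndrg1. The interval of each of these 10 peaks lay wholly above the members' median of 12.5. They were picked as the highest members, and the intervals do not allow for that choice.

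Of the 10 highest members, 3 were on chromosome 8 and 4 on chromosome 15, and these chromosomes held 9 of the 24 members with a tag count of at least 20. They held 53 of all 430 members (12.3%) and 440 of all 4311 peaks (10.2%). All peaks on chromosome 8 had a median tag count of 18.5 and those on chromosome 15 of 18.1, against 14.2 over all chromosomes. The medians of the distal intronic peaks were 11.6 on chromosome 8 and 13.0 on chromosome 15. The part of chromosome copy number in these values was not tested.

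**Figure D2:**
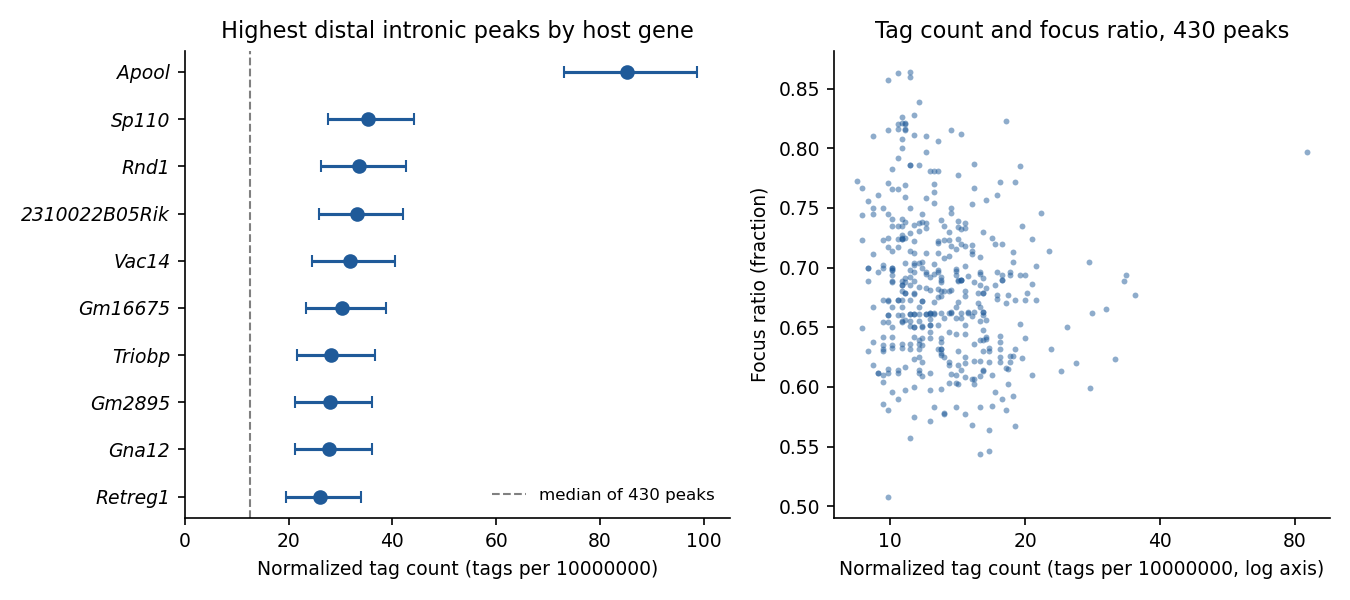
Left, the normalized tag count (tags per 10000000) of the 10 highest distal intronic peaks by host gene, with 95% Poisson intervals, and a dashed line at the median of 12.5. Right, tag count (log axis) against focus ratio for all 430 peaks, where the peak in Apool lies alone at 85.2 and the others end at 35.2.

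The focus ratio, a fraction that HOMER gives for how tightly the tags of a peak face its centre, had a median of 0.679 (interquartile range 0.637 to 0.720) in distal intronic peaks. It was 0.673 in intergenic and 0.667 in proximal peaks. The SD over the members was 0.0618, below the counting error of 0.0891 estimated for the median member from its tags alone. The same held in intergenic (0.0587 against 0.0902) and proximal peaks (0.06 against 0.0838). That estimate is larger than the whole spread, so it cannot tell which differences between members are detectable. The values below are given without an error. The highest values were 0.864 in Gm34653, 0.863 in Gm2824 and 0.860 in Paip2b, which encodes an inhibitor of the poly(A)-binding protein. The peak in Gm2824 was repeat-masked over 99.2% of its bases. The lowest values were 0.508 in the deubiquitinase gene Otud7b, 0.544 in Angptl6 and 0.546 in Supt3, a subunit of the SAGA coactivator. Across the 430 peaks, which share a library and its depth, the tag count and the focus ratio had a Spearman correlation of -0.19 (Pearson -0.07). The tag count and the distance to the TSS had one of -0.01.

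The largest folds over input were 56.1 in Tmeff1, 48.6 in the mechanosensitive channel gene Piezo2, 46.7 in C130026I21Rik, 45.5 in Rmnd5a, a subunit of the CTLH ubiquitin ligase, and 44.9 in the adhesion gene Kirrel. Their tag counts were 17.3 to 21.7. At the depth of the input the ChIP tags were 28 in Tmeff1, 24.3 in Piezo2 and 23.4 in C130026I21Rik. Each of these folds is larger than the tags behind it, so hardly any input tag lay beneath it. The size and order of the largest folds are therefore not resolved. Which of the 2 inputs the authors' fold uses is not told by the column names. The study says that the starved ChIP was set against control input, which does not settle which library is meant. Across the 430 peaks the fold and the tag count had a Spearman correlation of 0.08 (Pearson 0.11). The median fold was 7.59, against 8.31 in intergenic and 9.03 in proximal peaks.

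The members were spread over many genes. The 430 peaks had 407 host genes, of which 385 held 1 peak, 21 held 2 and 1 held 3, and 365 peaks (84.9%) were in protein-coding genes. The other hosts were mostly noncoding, with 37 peaks in lincRNA genes and 13 in antisense genes. The gene with 3 peaks was Sp140, a nuclear body protein of immune cells related to Sp110. Its peaks had tag counts of 17.6, 12.8 and 10.8 in introns 3, 7 and 5. They lay in a stretch of 534.2 kb on chromosome 1 that also held the peak in Sp110, the peaks of 18.1 and 9.87 in C130026I21Rik and the one of 11.8 in Gm16025. In all 7 peaks of this stretch most 32-base stretches, from 80.7% to 100% of them, also occurred elsewhere in the genome. Over all members that share exceeded 50% in 14 of 430 (3.26%), against 9 of 465 intergenic (1.94%) and 30 of 3382 proximal peaks (0.887%). The part of reads from the other copies in these peaks was not tested.

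A protein-coding host had a median length of 108.3 kb, against 17.4 kb over all 21938 protein-coding genes. The share of genes with a distal intronic peak was 1.56% in all, and it went from 0.127% of genes up to 20 kb long to 10.8% of genes longer than 200 kb. A longer gene offers more bases that meet the rule, so this order follows from the rule in part. Per Mb of distal intron, genes up to 20 kb held 0.563 peaks (0.315 to 0.929), genes of 20 to 50 kb 0.773 (0.602 to 0.976) and genes over 200 kb 0.314 (0.257 to 0.379), so the density was lowest in the longest genes, where its interval overlapped only that of genes up to 20 kb. The introns themselves had a median length of 25.5 kb. The longest was the intron of 4384 kb in Gm20388, followed by introns of 666.9 kb in Cadm2 and 612.9 kb in Opcml, both cell adhesion genes of the immunoglobulin family. The peaks in them had tag counts of 13.0, 11.6 and 16.4. The annotated gene Gm20388 spans 4435 kb, and no other gene was a host of its peak. The TSS nearest to that peak was of Acta1, at 10.15 kb.

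Intron 1 held 144 of the peaks (33.5%, 29.2 to 38.1), intron 2 held 63, intron 3 held 52 and introns 6 and later 115. Set against the bases that could be counted, distal introns held 0.472 peaks per Mb (0.428 to 0.519) and intergenic sequence 0.352 (0.321 to 0.385). On the autosomes alone these were 0.493 (0.448 to 0.542) and 0.405 (0.369 to 0.444), so the intervals remained apart. Within the principal transcripts of protein-coding genes, which held 343 of the 365 peaks in such hosts, intron 1 held 0.552 peaks per Mb (0.449 to 0.672), intron 2 held 0.398 (0.292 to 0.531) and later introns 0.457 (0.396 to 0.526). These intervals overlapped, so no preference for intron 1 was resolved. Along the intron the peaks lay toward the downstream end, as 210 of these 343 peaks (61.2%) were past the midpoint, where 51.5% of the distal bases lay. The density past the midpoint was 0.560 peaks per Mb (0.487 to 0.641) and before it 0.377 (0.316 to 0.447). Without intron 1, whose start the distance rule removes, they were 0.518 (0.437 to 0.610) and 0.370 (0.301 to 0.450), with intervals that just overlapped. How well reads can be placed in each of these spaces was not tested.

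The distance to the nearest TSS had a median of 12134 bp, and 259 members (60.2%) had a TSS of their own host gene as the nearest. The farthest were in Gpc6, a glypican, at 219.9 kb, in Astn2 at 184.4 kb and in Prkg1, a kinase activated by cGMP, at 167.9 kb. Their tag counts were 15.2, 10.1 and 13.0. Members within 10 kb of a TSS had a median tag count of 12.7, those from 10 to 50 kb one of 12.5 and the 42 beyond 50 kb one of 13.6 (interquartile range 10.6 to 16.6), so the medians did not fall with distance. At the limit of 2500 bp the nearest members were in Fam83d (2501 bp, tag count 11.1), Inpp4b (2585 bp, 11.3) and Gm34653 (2618 bp, 11.1). Just within it were peaks in 9330136K24Rik (2486 bp, 17.6), AC102232.1 (2474 bp, 10.1) and Kif3c (2473 bp, 10.1).

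**Figure D3:**
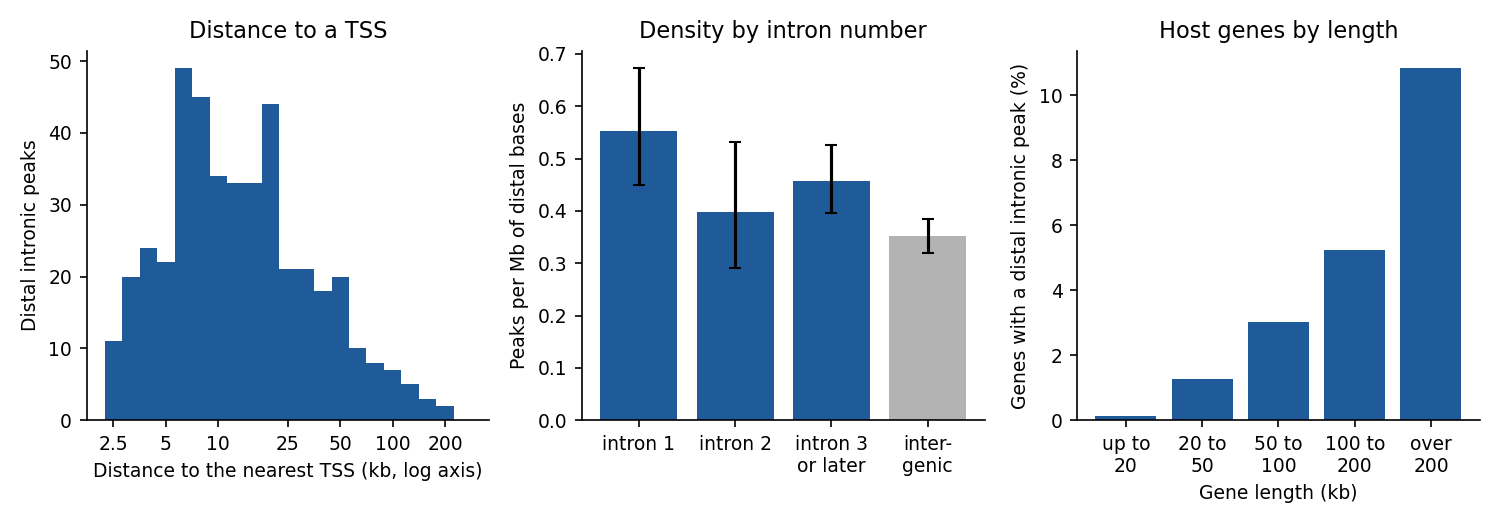
Left, the number of distal intronic peaks by distance to the nearest TSS (kb, log axis). Middle, peaks per Mb of distal bases in introns of protein-coding genes and between genes, with 95% Poisson intervals. Right, the percent of protein-coding genes of each length (kb) with a distal intronic peak, which goes from 0.127% to 10.8%.

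A host gene could also carry a peak at its own promoter, within 2500 bp of one of its start sites. This was so for 80 members (18.6%, 15.2 to 22.6). The share depended on the limits, at 28.2% with a distance limit of 1000 bp, 10.95% for peaks at least 8-fold over input and 8.78% for peaks at or above the median score. Of the 343 protein-coding host genes 73 had such a promoter peak (21.3%), against 3747 of all 21938 genes (17.1%). Among genes over 200 kb it was 26 of 108 hosts (24.1%) against 120 of 998 genes (12.02%), and among genes of 20 to 50 kb it was 9 of 66 hosts (13.6%) against 1155 of 5152 genes (22.4%). The shares were closer in genes of 50 to 100 kb (26.3% against 23.0%) and of 100 to 200 kb (21.8% against 18.1%). In genes up to 20 kb it was 1 of 15 hosts (6.67%) against 13.8%. These differences were not tested. Members whose host had a promoter peak had a median tag count of 12.8 and those whose host had none one of 12.5.

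The gene lists were drawn up by function, with earlier results of these data known. A count of hosts is read against 1.56% of all genes and against the median length of the list. Of the 55 autophagy and lysosome genes of the study 1 was a host (1.82%), near the 1.56% of all genes. It was Bnip3, with a peak of 11.6 (7.41 to 17.2) in intron 1 of 5, at 2.90 kb from the TSS and 14.95-fold over input. None of 43 genes of the core autophagy machinery and none of 36 genes of glucose uptake and carbon metabolism was a host. Their median lengths were 38.6 kb and 24.8 kb, and 1.28% of all genes of 20 to 50 kb were hosts. With so low a share, lists of this size do not show that these genes lack such peaks. Of 36 genes of AMPK, FOXO, insulin and mTOR signalling 2 were hosts (5.56%). They were Gsk3b, a kinase inhibited by insulin signalling, with a peak of 15.9, and Mitf with peaks of 11.8 and 10.8. Mitf is a relative of the lysosomal regulator TFEB. The list had a median length of 63.5 kb, where 3.02% of all genes of 50 to 100 kb were hosts, and its share rests on 2 genes.

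Pontin complexes gave 2 hosts of 33 genes (6.06%), with a median length of 23.1 kb, where 1.28% of all genes of 20 to 50 kb were hosts. The share rests on 2 genes, and neither is of that length. Ino80 is 104.6 kb long, where 5.22% of genes of 100 to 200 kb were hosts. Ino80c is 17.2 kb long, where 0.127% of genes up to 20 kb were hosts. No excess over gene length was tested. Ino80, the ATPase of the INO80 remodeller, held a peak of 18.8 (13.4 to 25.7) in intron 4, which was repeat-masked over 74.8% of its bases, and Ino80c, another subunit, held one of 19.7 (14.2 to 26.8) in intron 3. Both lay above the median of the members. In the 47 chromatin regulators there were 5 hosts (10.6%), which were Arid1b, a SWI/SNF subunit, with peaks of 17.6 and 14.0, Setd5 with 17.8, the deacetylase Hdac9 with 14.0, the 5-methylcytosine oxidase Tet3 with 11.8 and the DNA methyltransferase Dnmt3a with 9.15. The median gene of that list was 80.5 kb long, and 3.02% of all genes of 50 to 100 kb were hosts. That share was 5.22% in genes of 100 to 200 kb and 10.8% in genes over 200 kb. Arid1b (353.3 kb) and Hdac9 (869.5 kb) belong to the longest group. The part of gene length in the count of this list was not tested.

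Transcription factors and their coregulators gave 7 hosts of 71 genes (9.86%), with a median length of 86.5 kb. They were Nfia (17.1), Runx2 (14.4), the mesenchymal repressor Zeb1 (14.4), Zfhx3 (13.7), the Hedgehog factor Gli2 with peaks of 13.0 and 12.8, Ets1 (11.6) and Ppard (10.6). Of all genes, 3.02% of those of 50 to 100 kb and 10.8% of those over 200 kb were hosts. Zfhx3 (1019 kb), Nfia (346.1 kb), Runx2 (318.8 kb) and Gli2 (219.5 kb) are in the latter group. The part of gene length in this count was not tested. Of 51 signalling genes 5 were hosts (9.80%), with a median length of 69.3 kb in the list. They included the kinases Prkce (13.7) and Prkca (10.1), the HGF receptor Met (11.8) and the WNT factor Tcf7l1 (9.63). Prkce (490.1 kb) and Prkca (410.5 kb) are among the genes over 200 kb. Of 52 actin and focal adhesion genes, with a median length of 104.3 kb, 2 were hosts (3.85%), Lpp (11.6) and Tns1 (10.1). Of all genes of 100 to 200 kb 5.22% were hosts. Of 43 matrix genes, with a median length of 49.5 kb, 1 was a host (2.33%), against 1.28% of all genes of 20 to 50 kb. It was Hspg2, which encodes perlecan, with a peak of 19.5 (13.8 to 26.2). The part of gene length in these 3 lists was not tested.

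In base composition the distal intronic peaks were unlike the promoter peaks and close to the intergenic ones. Their GC content had a median of 46.2%, against 46.8% in intergenic and 55.9% in proximal peaks. The ratio of observed to expected CpG, which is near 1 in unmethylated CpG islands and low elsewhere, had a median of 0.198, 0.215 and 0.659 in that order. A GC content over 50% with a CpG ratio over 0.6 was found in 5 of 430 members (1.16%), in Gm26834, Prrx2, E130114P18Rik, Gm15738 and Gm12979, against 5.81% of intergenic and 50.8% of proximal peaks. From the peak centre to 2000 bp away GC fell from 47.5% to 44.2% upstream and 44.4% downstream in genome order, and repeat-masked bases rose from 18.6% to 26.6% and 25.7%.

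**Figure D4:**
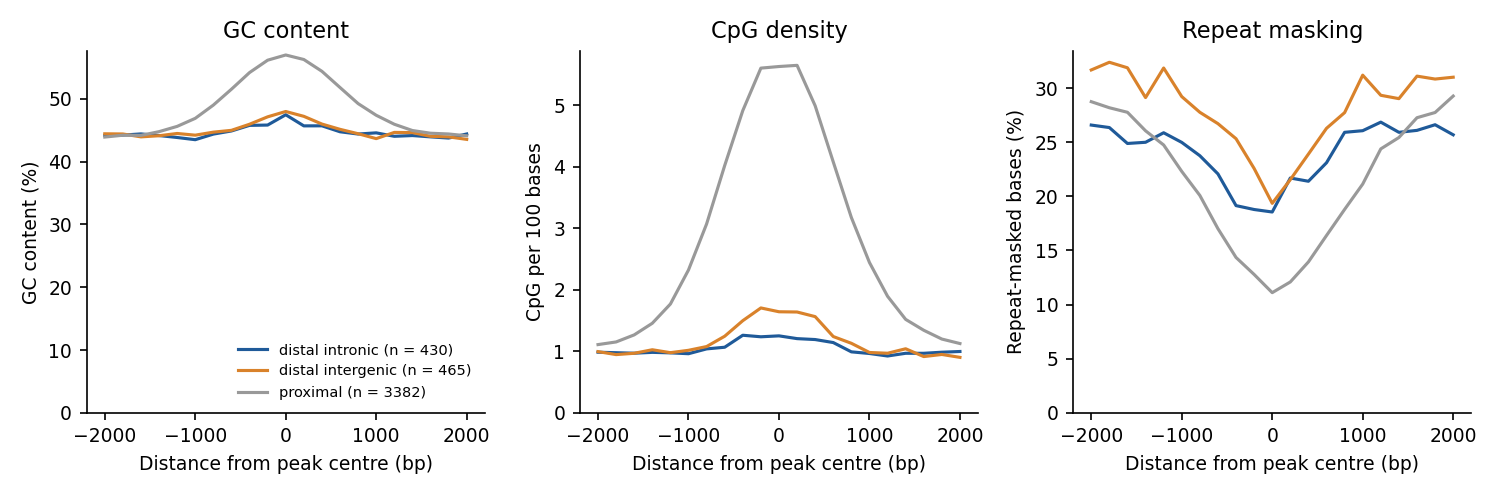
GC content (%), CpG per 100 bases and repeat-masked bases (%) in 200 bp windows by distance from the peak centre (bp), as means over distal intronic, distal intergenic and proximal peaks. The distal intronic GC content is 47.5% at the centre and 44.2% at -2000 bp, and at the centre both distal classes lie below the proximal class in GC and CpG and above it in repeat masking.

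Motifs were searched as exact strings on both strands of the central 200 bp. None of the 10 strings contains another, and a match is a description and not a binding site. The AP-1 motif TGANTCA, bound by Fos and Jun proteins, was in 32 of 430 distal intronic peaks (7.44%, 5.32 to 10.3), against 6.67% of intergenic and 2.37% of proximal peaks. The FOXO3a motif GTAAACA was in 16 (3.72%, 2.30 to 5.96), against 2.58% (1.48 to 4.46) of intergenic and 1.77% (1.38 to 2.28) of proximal peaks, so the intervals of both distal classes overlapped. The RUNX motif TGTGGTT was in 17 (3.95%) and the TEAD motif GGAATGT in 9 (2.09%). Motifs common in promoters were scarcer. The SP/KLF motif GGGCGGG was in 17 (3.95%) against 12.3% of proximal peaks, the ETS motif CCGGAAG in 4 (0.930%) against 5.26%, and the E2F1 motif GCGGGAA in 4 (0.930%) against 4.85%. The TFEB motif TCACGTG was in 4, the CTCF motif CCACNAGGG in 4 and the CREB1 motif TGACGTC in 2. Over the whole peak the FOXO3a motif was in 39 distal intronic peaks (9.07%, 6.71 to 12.2), against 5.81% (4.02 to 8.32) of intergenic and 4.47% (3.82 to 5.21) of proximal peaks. AP-1 was then in 82 (19.1%), against 18.3% and 7.72%, and TFEB in 17 (3.95%), against 3.01% and 6.33%.

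The 16 members with the FOXO3a motif had a median tag count of 13.2 and a range of 9.63 to 27.9, within that of the other peaks. The highest were in Gm2895 (27.9), Setd5 (17.8), Rbbp8, a factor of DNA end resection (17.3), 4930449C09Rik (16.9), the thyroid hormone receptor gene Thra (16.4) and Atxn1 (15.4). The others were in Rasgef1b, Arid1b, Gpr89, Sdc4, Paip2b, Ctnnd2, Trpm3, AC141639.2, Mccc2 and Elf2. In Rasgef1b and Mccc2 the same window also held an AP-1 motif. Of the 16 hosts none was an autophagy or lysosome gene of the lists, where 1 of all 407 host genes, Bnip3, was such a gene. The absence among the 16 therefore says little about autophagy genes.

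Around the peaks, the share of 200 bp windows with the FOXO3a motif was 3.72% at the centre and 3.198% (2.47 to 4.14) in windows 200 and 400 bp away. It was 2.83% (2.41 to 3.32) in windows from 1000 to 2000 bp away, with overlapping intervals throughout. Proximal peaks had 1.77%, 2.18% and 2.84% (2.68 to 3.01) in that order, so their share was like the distal intronic one far from the centre. The part of base composition in these shares was not tested. AP-1 was in 11.6% (10.1 to 13.2) of the windows 200 and 400 bp away. It was in 7.44% (5.32 to 10.3) at the centre and in 5.70% (5.10 to 6.36) of the far windows. The centre interval overlapped both others, so no dip at the centre was resolved. The highest AP-1 share was 14.0% in the window at -400 bp, and at 400 bp on the other side it was 12.3%. The intergenic peaks had the same order, with 11.1% (9.78 to 12.6), 6.67% and 6.63% (6.01 to 7.31). TFEB, the E-box of a lysosomal regulator, was in 2.62% (1.96 to 3.48) of the windows 200 and 400 bp away. It was in 0.930% (0.362 to 2.37) at the centre, which overlaps, and in 1.12% (0.871 to 1.45) farther out. Proximal peaks had 2.63%, 1.69% and 0.899% in that order and intergenic peaks 1.67%, 1.51% and 1.13%, so the flank share is not particular to distal intronic peaks. SP/KLF was in 3.95% (2.48 to 6.24) at the centre and in 0.950% (0.719 to 1.25) of the far windows. Intergenic peaks had 3.66% and 1.52% and proximal peaks 12.3% and 2.90%, so this order is not particular to distal intronic peaks.

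**Figure D5:**
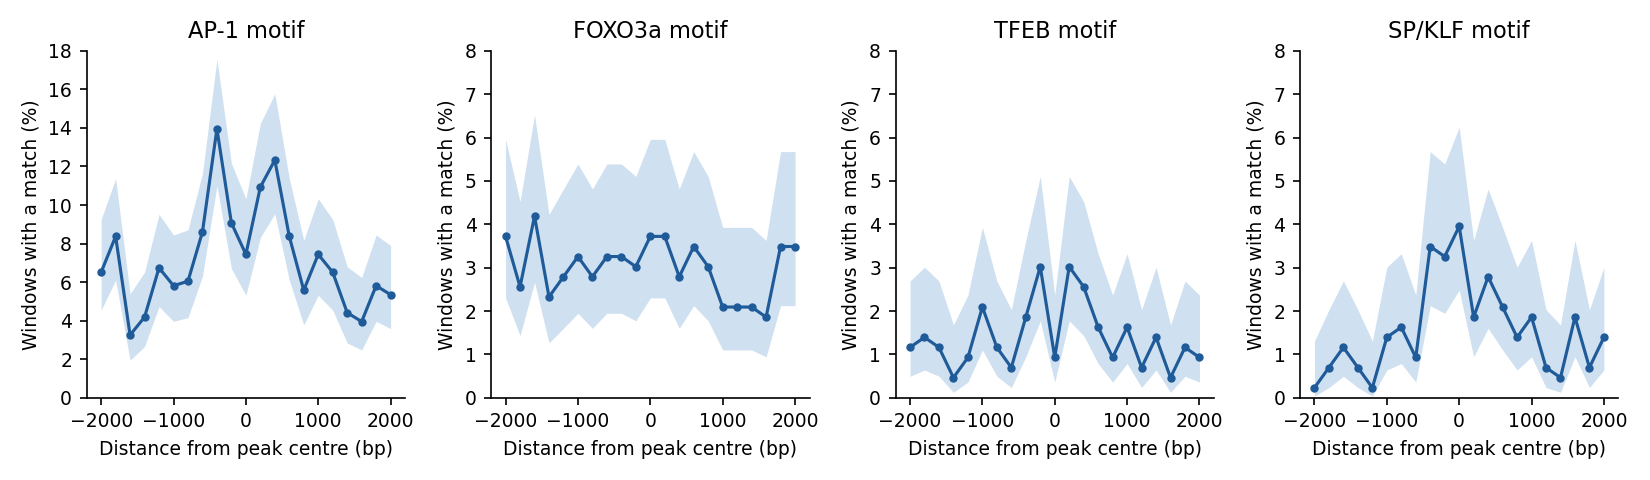
Percent of 200 bp windows with an exact match by distance from the peak centre (bp), for 4 motifs over the 430 distal intronic peaks. Points are shares and bands 95% Wilson intervals. AP-1 reaches 14.0% at -400 bp and 12.3% at 400 bp with 7.44% (5.32 to 10.3) between them at the centre. The FOXO3a share is 3.72% at the centre, with bands that overlap along the whole profile.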

How the data were processed

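ChIP-seq values came from 1 of the 4 libraries, the mePontin ChIP of MEFs under glucose starvation. The authors used Bowtie2 for alignment to GRCm38 and HOMER 4.7.2 for peaks, each 481 bp wide. The deposited signal is the tag count in a peak per 10000000 of the library's 20765512 tags, which the authors gave a second time at the depth of the input. The deposited focus ratio is a fraction and the deposited score is the authors' own. The authors computed the ratios of tags to input and to the surrounding 10 kb, each with a p-value. The caller's threshold was 18 tags at a false discovery rate of 0.001, which is the lowest score in the file, while the tag count of a listed peak can be lower. A peak also had to pass 4-fold over both and a p-value of 0.0001, and weaker regions were not analysed here. The file also gives the tags of the control, in a column whose name does not tell which input it is, and a clonal fold. The same doubt holds for the input behind each fold. These 2 columns were left unused.

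Peaks were placed on GENCODE vM21. GC content, repeat masking, sequences and the 32-base stretches found more than once came from the GRCm38 RefSeq assembly with its unplaced contigs. The host gene was a protein-coding gene before others, then the longest, and introns were numbered on the principal transcript. Shares have 95% Wilson intervals, and tag counts and densities have 95% Poisson intervals, all for counting error only. No test was run, since peaks of 1 library are not replicates.

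The genes named are the 10 members with the highest tag count, the 5 with the highest fold, the 3 highest and 3 lowest in focus ratio, hosts of 3 or more, the 3 farthest from a TSS, the 3 in the longest introns, hosts on 10 gene lists, 6 members with the FOXO3a motif, and the 3 peaks on either side of the distance limit. Others, such as the remaining FOXO3a members, the CpG-rich ones, Ets1, Ppard and those on the stretch of chromosome 1, were named after their values were seen. The members, lists and motifs were chosen with earlier results of these data known. One gene of the signalling list is not reported here. The steps were tested on simulated data. Calculations ran in Python 3.11.15 with SciPy 1.17.1, NumPy 2.4.6 and pandas 2.3.3, and plots in matplotlib 3.10.9.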

Additional observations from a re-analysis of the deposited data

How the results depend on the processing

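Of 32 values computed under 8 other settings, 25 stayed within the interval of the main value, or within 1.5 times it for counts. Keeping peaks that exceeded input 8-fold left 201 of the 430 distal intronic peaks, and keeping those at or above the median score of all peaks left 148. In the latter, which were selected on a measure close to the tag count, the median tag count was 16.4 and the median focus ratio 0.663. The share of members whose host gene has a promoter peak, 18.6%, was 28.2% with a distance limit of 1000 bp, where added members near a start site count as a promoter peak of their host. It was 10.95% after the 8-fold limit and 8.78% after the score limit, which also remove promoter peaks. The share in intron 1 ranged from 30.4% to 35.8% over the settings. No paired analysis was possible because each group has 1 library. Depth limits single peaks, as the median member rests on 26.0 tags.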
